A study of Apeltes quadracus with 21 samples.

Results

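The blank pterygiophore (Pter) was compared with the last dorsal spine (DSL), the spine just behind it, in the fourspine stickleback *Apeltes quadracus*. A pterygiophore is a bone of the dorsal midline on which a spine or fin ray normally sits, and a blank one carries neither. The comparison used 6 of 21 RNA-seq libraries, 3 of Pter and 3 of DSL, taken as a pair from each of 3 fish, and 21134 of 31532 gene models had enough reads to be tested. All 3 fish were fry of the Louisbourg population at stage 31, when the fin fold is present, with 4 dorsal spines each. All were L/L, that is homozygous for the haplotype of the *HOXDB* cluster that the study links to fewer spines, so the comparison covers 1 genotype. The other 15 libraries came from the same fish, as the spines DS1, DS2 and DS3 numbered from the head, the dorsal fin (DF) and, on the underside, AF (anal fin). They shared the estimate of the spread and show where each gene stood outside the pair. The blank pterygiophore is the one midline element of the set that bears no external structure. The study describes several blank pterygiophores in *Apeltes*, and its text does not state which of them made up a Pter library.

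*Hox* genes encode homeodomain transcription factors that lie side by side in clusters. Genes with low paralogue numbers at one end of a cluster are generally active from the head backwards, and genes with high numbers at the other end are active towards the tail, so that a position along the body carries its own combination. In vertebrates this code patterns the vertebrae, and the genes with the highest numbers are used again in paired and median fins and in limbs. Teleosts carry duplicated clusters, and the last letter of each name used here (*HOXD11A*, *HOXD11B*) tells the copies apart. In the table only the *Hox* genes carried names. The tissue labels were therefore not checked against markers of bone, cartilage, muscle or skin, and every other gene is given by the identifier of its gene model. In pieces of tissue such as these, fewer cells of a type and less RNA per cell cannot be told apart.

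Each of the 6 libraries held 26357373 to 31127495 counts. A Pter library was more concentrated in a few transcripts than a DSL library, with 26.6 to 28.4% of counts in the 10 genes most abundant over all 21 libraries in Pter, against 16.9 to 18.4% in DSL. The scaling factors that correct for this (TMM, trimmed mean of M values) were 0.773 to 0.797 in Pter, against 1.07 to 1.11 in DSL, and all levels below are CPM (counts scaled to a common library size) after this scaling. Replicate 1 of Pter stood apart from the other libraries in a pair of gene models from scaffolds not placed on a chromosome. STRG.30374 and STRG.27764 together took 19.7% of its reads, against 0.787 to 3.23% in the other 20 libraries. The mitochondrial sequence took 0.0948% of its reads, against 0.0102 to 0.0275% in the other 20 libraries. Genes that rest on this library are given with and without it.

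Across all genes, 5648 of 21134 gene models (26.7%) differed between Pter and DSL of the same fish at an adjusted p under 0.05 in edgeR's quasi-likelihood test with fish in the model. Of these, 2604 (12.3% of those tested) were higher in Pter and 3044 (14.4%) were lower. In 5489 of the 5648 all 3 fish agreed on the direction, against 10978 of all 21134 tested. Choosing gene models by this test in the same fish by itself favours such agreement. The median log2 difference over all tested gene models was -0.018. Without fish in the model 2059 gene models (9.74%) passed, and all 2059 were among the 5648. Without replicate 2 in any tissue 2220 passed, 832 higher and 1388 lower, and without the Pter library of replicate 2 alone 3744 passed. Without replicate 1 the lower ones numbered 1970, and without the DSL library of replicate 2 the higher ones numbered 1602. The 3 Pter libraries and the 3 DSL libraries did not overlap in 5189 gene models (24.6%).

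The *Hox* list held 47 genes, of which 38 had enough reads to be tested. Pter had lower levels than DSL of some genes from the tail end of the clusters and higher levels of some genes nearer the head end. In all, 15 of the 38 passed the test, against 26.7% of all tested gene models. Of the 19 tested genes of paralogue groups 9 to 13, 10 fell in Pter and none rose, against 14.4% of all gene models that fell. Their median log2 difference was -0.77, and the point estimate was below 0 in 16 of the 19. The 16 include *HOXA13B* (0 reads in Pter, 16 in DSL) and *HOXC12A* (1 and 11). Of the 19 tested genes of groups 1 to 8, 5 rose and none fell, against 12.3% of all gene models that rose, with a median of 0.34 and 14 of the 19 above 0. Without fish in the model 9 *Hox* genes passed, and without replicate 2 or replicate 3 the rising ones numbered 3. As a description across these 38 genes, which share clusters and libraries and are not independent, paralogue number and log2 difference had a Spearman rho of -0.648 and a Pearson r of -0.633.

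**Figure D1:**
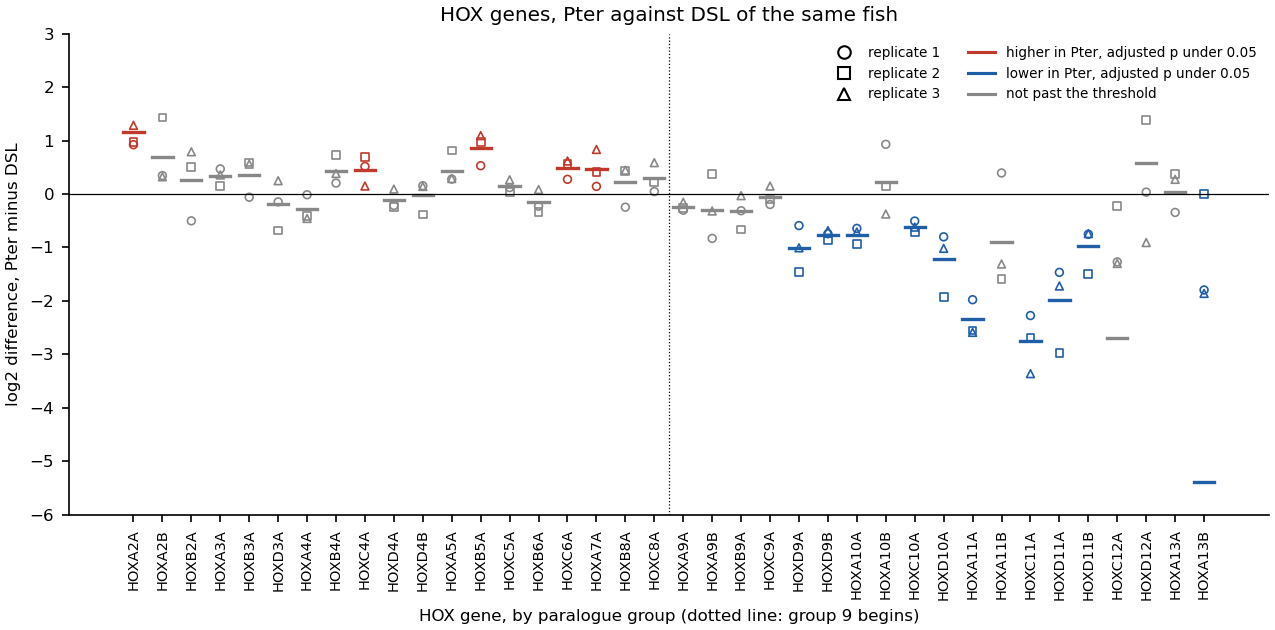
The log2 difference between Pter and DSL of the same fish (y axis, computed with an offset of 0.1 CPM) for the 38 tested *Hox* genes, ordered along the x axis by paralogue group. Circles, squares and triangles are replicates 1, 2 and 3, bars are the fitted differences, red is higher in Pter and blue lower in Pter at an adjusted p under 0.05, and grey did not pass. The 10 blue genes all lie right of the dotted line where group 9 begins and the 5 red genes all lie left of it. The bar of *HOXA13B* rests on 0 reads in Pter and 16 in DSL, and that of *HOXC12A* on 1 and 11.

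The group 11 genes, which in mouse pattern the sacral vertebrae and the forearm, included *HOXC11A*, *HOXA11A* and *HOXD11A*. These were the 3 largest *Hox* falls that passed with reads in both tissues. Of the 5 tested genes of the group 4 fell, against 14.4% of all gene models. *HOXA11A* (chromosome 10, 9806117 to 9808980 of the authors' *Apeltes* assembly) had 6.97, 3.37 and 2.66 CPM in Pter replicates 1, 2 and 3, against 27.8, 20.3 and 16.5 CPM in DSL. Every Pter library lay below every DSL library, and the log2 difference was -2.34 ± 0.15 (SE, adjusted p = 4.36e-09). *HOXA11A* was also lower in Pter than in DS3, the spine in front (log2 difference -1.60, adjusted p = 1.48e-06), where it averaged 12.8 ± 2.55 CPM (SD, n = 3). DS1, DS2, DF and AF averaged 17.4, 18.4, 27.6 and 34.6 CPM, so Pter at 4.34 ± 2.31 CPM had the lowest mean of the 7 tissues.

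*HOXC11A* and *HOXD11A* had another pattern over the body, with little or no signal in the anterior spines, a low level in Pter and higher levels behind it. *HOXC11A* (chromosome 12, 10239775 to 10242780) had 2.43, 1.23 and 0.754 CPM in Pter, against 12.1, 8.52 and 8.68 CPM in DSL, a log2 difference of -2.74 ± 0.22 (SE, adjusted p = 2.05e-07). It had no reads in DS1 or DS2 and averaged 0.0124 CPM in DS3, while DF and AF averaged 37.5 and 46.6 CPM. *HOXC11A* was thus higher in Pter than in DS3 (adjusted p = 1.09e-05) and lower than in DSL. *HOXD11A* (chromosome 16, 9102274 to 9106414) had 3.58, 0.947 and 1.77 CPM in Pter, against 10.1, 8.11 and 6.08 CPM in DSL, a log2 difference of -1.99 ± 0.26 (SE, adjusted p = 1.55e-05). Against DS3 its log2 difference was 1.21 for Pter (adjusted p = 0.0166) and 3.21 for DSL (adjusted p = 2.97e-06). For both genes all 3 Pter libraries lay below all 3 DSL libraries.

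The *HOXDB* cluster, where the L haplotype lies, differed between Pter and DSL in 2 of its 3 members, against 26.7% of all gene models, and *HOXD4B* did not pass. *HOXD11B* (chromosome 6, 16016955 to 16021639) had 21.1, 10 and 17.7 CPM in Pter, against 35.6, 28.7 and 29.6 CPM in DSL, a log2 difference of -0.98 ± 0.17 (SE, adjusted p = 0.000285). It averaged 11.3 ± 2.77 CPM in DS3, where its difference from Pter did not pass (log2 difference 0.51, adjusted p = 0.0579) and its difference from DSL did (1.49 higher in DSL, adjusted p = 7.39e-05). *HOXD9B* (chromosome 6, 16025019 to 16029400), a group 9 gene, had 32.9, 25.3 and 28.2 CPM in Pter, against 55.2, 46.3 and 45.4 CPM in DSL. Its log2 difference was -0.77 ± 0.14 (SE, adjusted p = 0.000486), its libraries did not overlap, and it too did not pass between Pter and DS3 (0.31, adjusted p = 0.158). Unlike *HOXC11A* and *HOXD11A*, both had lower means in the fins than in Pter, with 7.97 CPM in DF and 6.7 in AF for *HOXD11B* and 16 and 13.8 CPM for *HOXD9B*, against Pter means of 16.3 and 28.8 CPM. *HOXD4B*, the group 4 gene of the cluster, had 15.5, 10.8 and 12.8 CPM in Pter, against 13.9, 14.2 and 11.6 CPM in DSL, with overlapping libraries and a log2 difference of -0.0094 ± 0.17 (SE, adjusted p = 0.977). Both tissues had more *HOXD4B* than DS3, with log2 differences of 0.69 for Pter (adjusted p = 0.0114) and 0.70 for DSL (adjusted p = 0.02). *HOXD4B* overlaps 1 gene model of the same strand, which makes its counts less certain.

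The other posterior genes that fell were of groups 9, 10 and 13. Group 10, whose members hold back rib formation in mouse, fell in 3 of its 4 tested genes, against 14.4% of all gene models. *HOXA10A* (chromosome 10, 9799489 to 9805404) had 25.9, 16.9 and 18.8 CPM in Pter, against 40.5, 32.4 and 30.9 CPM in DSL, a log2 difference of -0.77 ± 0.12 (SE, adjusted p = 0.000103, or 0.0511 without fish in the model). Like *HOXA11A*, it was also lower in Pter than in DS3 (-0.88, adjusted p = 4.75e-05). Between DSL and DS3 *HOXA10A* did not pass (-0.12, adjusted p = 0.591), whereas *HOXA11A* was higher in DSL (0.74, adjusted p = 0.00407). *HOXD10A* had 10.6, 3.42 and 6.65 CPM in Pter, against 18.5, 13.3 and 13.6 CPM in DSL (-1.21 ± 0.20, SE, adjusted p = 0.000215, or 0.0539 without fish in the model). *HOXD9A*, its neighbour on chromosome 16, had 10.9, 5.31 and 7.76 CPM in Pter, against 16.4, 14.8 and 15.7 CPM in DSL (-1.01 ± 0.16, SE, adjusted p = 0.000154). With *HOXD11A* this makes 3 of the 4 tested posterior genes of the *HOXDA* cluster that fell, each of them in all 3 fish, and the remaining one, *HOXD12A*, was under 1 CPM in both tissues. *HOXD9A* and *HOXD10A* each overlap a gene model on the opposite strand, and how the counting treated strand is not given in the sources used here.

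A pair of the 10 falling *Hox* genes were weaker. *HOXC10A* had 17.1, 10.8 and 9 CPM in Pter, against 24.3, 17.6 and 13.9 CPM in DSL. Its libraries overlapped between the tissues although it was lower in Pter in each fish, with a log2 difference of -0.61 ± 0.18 (SE, adjusted p = 0.0176, or 0.385 without fish in the model). *HOXC10A* did not pass when replicate 2 (adjusted p = 0.0831) or replicate 3 (0.0739) was left out, nor without the Pter library of replicate 2 (0.0685) or 3 (0.0817) or the DSL library of replicate 2 (0.086). *HOXA13B*, of the group that patterns the outermost part of fins and limbs, had 0 reads in Pter and 16 in DSL, of which none were in replicate 2. With 3 counts in place of the 0 Pter reads as a floor, it was 3.91-fold lower in Pter. That value leaves out the counting error of the 16 DSL reads and is no lower bound. Its call (adjusted p = 0.0219) was lost when either replicate 1 or 3 was left out (adjusted p = 0.127 and 0.163). The call was lost too when any single Pter library was left out (0.06 to 0.0611), or the DSL library of replicate 1 or 3 (0.0547 and 0.0739). It was also lost with limma-voom (log2 difference -2.46, adjusted p = 0.0503) and without fish in the model (adjusted p = 0.0506).

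Nearer the head end of the clusters, 2 of 11 tested genes of groups 1 to 4 (18.2%) and 3 of 8 of groups 5 to 8 (37.5%) rose in Pter. Of all tested gene models, 12.3% rose, so the share in groups 1 to 4 was near that of all genes. Without fish in the model 1 gene of groups 1 to 4 and 2 of groups 5 to 8 passed. *HOXB5A* (chromosome 11, 1437806 to 1440907), of a group that in mouse helps place the forelimb along the trunk, had 9.18, 10.2 and 9.40 CPM in Pter, against 6.32, 5.11 and 4.35 CPM in DSL. Its log2 difference was 0.87 ± 0.16 (SE, adjusted p = 0.000394) and its libraries did not overlap. *HOXB5A* averaged 12.1 CPM in DS3, 12.1 in DS2 and 10.9 in DS1, against 1.81 in DF and 1.25 in AF, so Pter lay closer to the anterior spines and DSL lay between these and the fins. *HOXC6A*, whose group marks the front of the thorax in mouse, had 17.8, 17.8 and 18.4 CPM in Pter, against 14.7, 12.1 and 12 CPM in DSL (0.48 ± 0.09, SE, adjusted p = 0.000355). Here too Pter lay between DS3 and DSL, with less than DS3 (-0.36, adjusted p = 0.007). *HOXA2A*, whose mouse counterpart gives the second branchial arch its identity, was low throughout, with 1.70, 1.36 and 1.64 CPM in Pter, against 0.848, 0.643 and 0.614 CPM in DSL (1.16 ± 0.28, SE, adjusted p = 0.00471, or 0.0861 without replicate 3). Both *HOXC6A* and *HOXA2A* overlap a gene model on the opposite strand.

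The remaining pair of rising *Hox* genes passed with fish in the model but not without it. *HOXA7A*, a gene of the thoracic region in mouse, had 15.4, 17.2 and 14.1 CPM in Pter, against 14, 12.9 and 7.89 CPM in DSL (0.46 ± 0.12, SE, adjusted p = 0.00866, or 0.342 without fish). *HOXC4A*, of a group active in the neck and upper trunk of mouse, had 19.6, 18.6 and 13.8 CPM in Pter, against 13.7, 11.4 and 12.4 CPM in DSL (0.45 ± 0.14, SE, adjusted p = 0.0222, or 0.192 without fish). The lowest Pter library of *HOXA7A* lay just above the highest DSL library. Its difference was 0.28 (adjusted p = 0.199) without replicate 3 and 0.49 (adjusted p = 0.0707) without replicate 2, and it did not pass without the Pter or the DSL library of replicate 3 (adjusted p = 0.0517 and 0.0608). *HOXC4A* did not pass without replicate 1 (adjusted p = 0.1) or 2 (0.212), without the Pter library of replicate 1 (0.0613) or 2 (0.0521), or without the DSL library of replicate 1 (0.0625) or 2 (0.165). Scaling counts by library totals alone moved the median of all gene models to -0.49 on the log2 scale. Under that scaling *HOXA7A* and *HOXC4A* lost their positive sign (-0.0091 and -0.028) and *HOXC6A* had 0.012 (adjusted p = 0.939). In all, 12 of the 38 *Hox* genes changed sign. Which scaling suits Pter and DSL better was not tested.

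**Figure D2:**
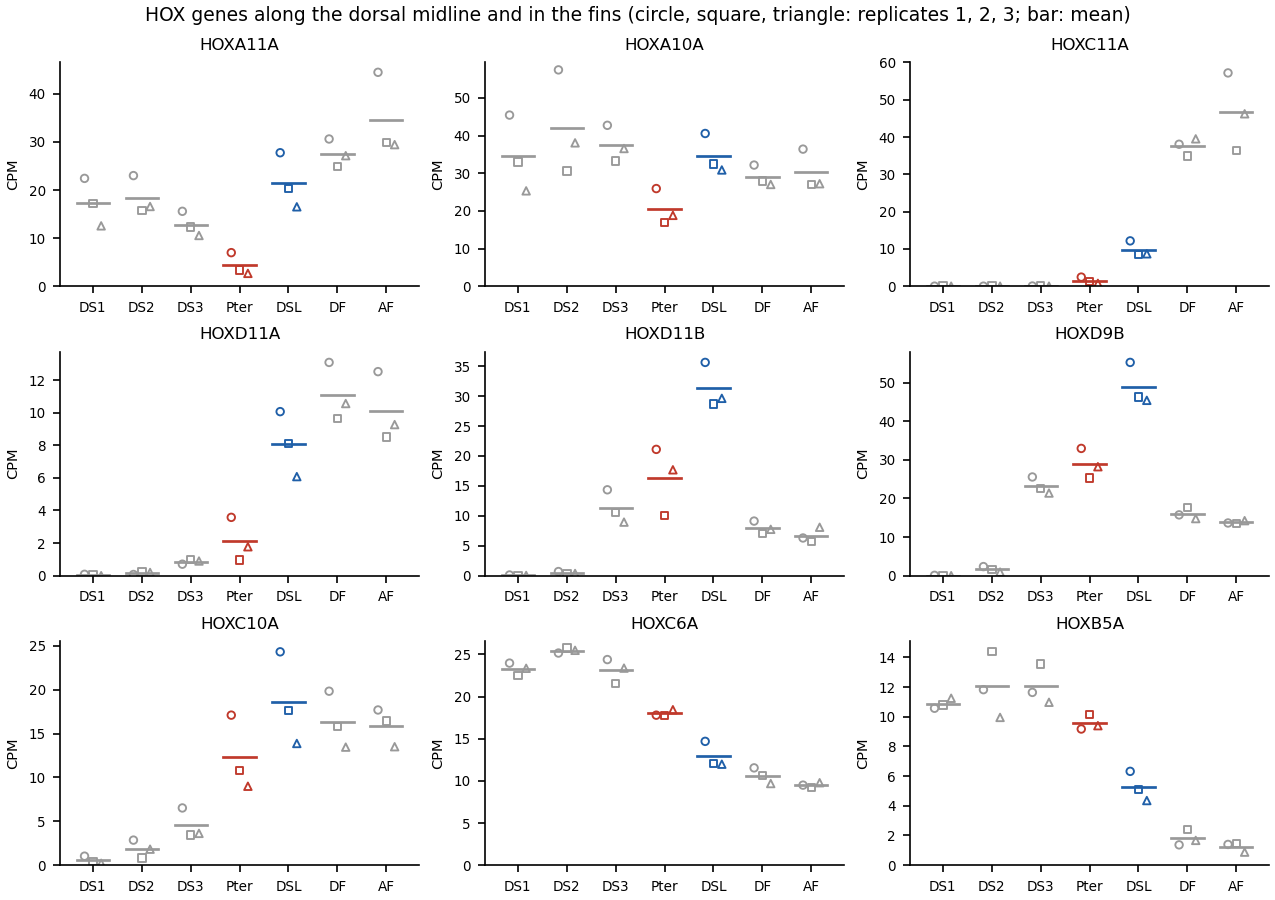
Levels of 9 *Hox* genes in CPM (y axes, each with its own range) in DS1, DS2, DS3, Pter, DSL, DF and AF, in order along the body as far as DF (x axes). Each circle, square or triangle is the library of replicate 1, 2 or 3 and each bar the mean of a tissue, with Pter in red, DSL in blue and the rest in grey. *HOXA11A* and *HOXA10A* dip in Pter below both neighbouring spines, *HOXC11A*, *HOXD11A*, *HOXC10A*, *HOXD11B* and *HOXD9B* step up between DS3 and DSL, and *HOXC6A* and *HOXB5A* step down.

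The contrasts with DS3 share libraries with that of Pter and DSL, so their values are given side by side only. Between Pter and DS3, 14.9% of all gene models passed (5.7% higher in Pter, 9.24% lower), and 16 of the 38 *Hox* genes did, 6 of them higher and 10 lower in Pter. Among groups 9 to 13 these were 5 higher and 4 lower, and among groups 1 to 8 they were 1 higher and 6 lower. Between DSL and DS3, 7.04% of all gene models passed (2.85% higher in DSL, 4.19% lower), and of groups 9 to 13 there were 10 higher and 1 lower in DSL, of groups 1 to 8 there were 1 higher and 9 lower.

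In 21 of the 38 tested *Hox* genes, and in 10 of the 15 that passed between Pter and DSL, the Pter mean lay between those of DS3 and DSL. It lay below both in 11, which include *HOXA11A*, *HOXA10A*, *HOXD9A* and *HOXA13B* among those called, and above both in 6, with *HOXC4A* as the only called one. These places rest on means alone, and *HOXD9A* did not pass between Pter and DS3 (adjusted p = 0.32). The same count was not made over all gene models, so it is a description with no share to set it against. Among the 23 genes that did not pass, *HOXB9A* had a mean of 12.2 CPM in Pter, against 15.2 CPM in DSL (-0.32, adjusted p = 0.186), and was lower in Pter than in DS3 at 35.1 CPM (-1.50, adjusted p = 6.02e-06). *HOXC8A* averaged 36.4 CPM in Pter, against 29.4 CPM in DSL (0.30, adjusted p = 0.0717). Per length of transcript (RPKM, reads per kilobase and library size), the highest *Hox* level in Pter was that of *HOXA7A*, at 22.2 RPKM in Pter, against 16.5 in DSL. In DSL the highest was that of *HOXD9B*, at 9.87 RPKM in Pter, against 16.8 in DSL. The rank of *HOXA7A* depends on its short gene model of 701 bp. By CPM its Pter mean of 15.6 lay below the 36.4 of *HOXC8A*. The 9 untested genes, which include all 4 of the *HOXBB* cluster, had totals of 0 to 4 reads in Pter and 0 to 2 in DSL.

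Over all tested gene models, *Hox* genes included, large differences were mostly losses in Pter. At a change of at least 2-fold, 302 gene models (1.43% of those tested) were higher in Pter and 869 (4.11%) were lower. At least 4-fold, 61 were higher and 271 lower, and at least 16-fold, 17 were higher and 59 lower. Without replicate 2 the 2-fold counts were 168 higher and 574 lower. How even the higher and the lower list were over the fish is given as a description of these lists only. Both lists were chosen by adjusted p and size of change in these same libraries, which by itself favours libraries that do not overlap. Whether the lists differ beyond that was not tested. The libraries of the 2 tissues did not overlap in 214 of the 302 higher gene models and in 811 of the 869 lower ones. The libraries of the tissue with more reads lay within 2-fold of each other in 151 of the 302 (Pter) and in 625 of the 869 (DSL). The log2 differences of the 3 fish correlated across 17621 gene models with Pearson r of 0.677, 0.61 and 0.769, a description across genes, which are not independent replicates.

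**Figure D3:**
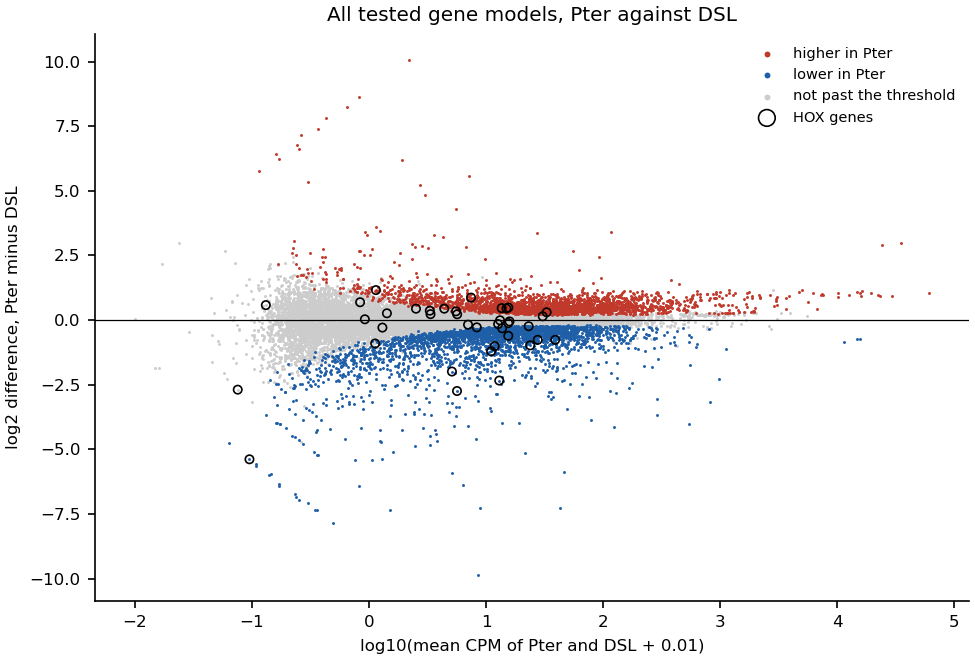
Each point is 1 of the 21134 tested gene models, by its mean level over Pter and DSL (x axis, log10 of CPM plus 0.01) and its fitted log2 difference, Pter minus DSL (y axis). Red is higher in Pter, blue lower in Pter and grey not past an adjusted p of 0.05, with *Hox* genes circled. Below -2 on the y axis blue points are spread over all levels, while few red points lie above 2. Near the top and the lower left, fitted values of genes with 0 reads in 1 tissue depend on the offset of the fit and are no bound.

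Gene models that were lower in Pter by at least 2-fold were mostly lowest there of all 7 tissues, in 690 of 869. Their highest mean was in DSL for 512, in DS2 for 137 and in DS1 for 100. The list was picked for Pter below DSL in these same libraries, which by itself favours Pter as the lowest and DSL as the highest. The share of all gene models with such places was not counted. Taken against DSL, the median log2 level of the 869 was -1.46 in Pter, -0.46 in DS3, -0.22 in DS2, -0.24 in DS1, -0.86 in DF and -0.82 in AF. Of the 278 whose Pter mean was at most 0.25 of the DSL mean, 263 kept at least that level in each of DS1, DS2 and DS3. DF and AF were also at or under 0.25 of the DSL level in 69, and 66 did both. This split was chosen after the levels had been seen.

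The gene models with the largest losses had reads in every dorsal spine and far fewer in Pter than in DSL. Not all kept the spine levels of the split above, since DS3 lay far below DSL in STRG.319 and STRG.14444. In STRG.18149 all of DS1, DS2 and DS3 did. STRG.14444 averaged 45.7, 26.0 and 7.54 CPM in DS1, DS2 and DS3, against 91.8 CPM in DSL, and 0.433 CPM in DF and 0.289 in AF. STRG.319 had 1 read in the 3 Pter libraries and 1599 in the 3 DSL libraries, a DSL to Pter ratio of 1173 (95% interval 210 to 46340, counting error only). It had 0, 0 and 0.0443 CPM in Pter, against 14.1, 20.3 and 16.7 CPM in DSL, and averaged 12.4, 9.16 and 3.25 CPM in DS1, DS2 and DS3 but 0.232 in DF and 0.307 in AF. STRG.29213 had 0.138, 0.782 and 0.665 CPM in Pter, against 47.6, 148 and 60.6 CPM in DSL (-7.26 ± 0.68, SE, adjusted p = 2.39e-07). In the other spines STRG.29213 averaged 64.3 to 80.2 CPM, in DF 0.629 and in AF 1.26. STRG.24722 had 0.0918, 0.123 and 0.133 CPM in Pter, against 12.5, 23.0 and 17 CPM in DSL (-7.28 ± 0.69, SE, adjusted p = 2.54e-07), and STRG.8764 had 0.0918, 0.206 and 0.133 CPM in Pter, against 13.6, 13.9 and 9.99 CPM in DSL (-6.39 ± 0.48, SE, adjusted p = 1.5e-08). Both were near 0 in DF and AF and between 5.12 and 14.9 CPM on average in DS1, DS2 and DS3. STRG.14444 was uneven among fish, with 0.138, 0.905 and 3.37 CPM in Pter, against 22.1, 168 and 84.9 CPM in DSL, and its difference of -5.89 ± 0.56 (SE, adjusted p = 2.47e-07) was -7.71 without the Pter library of replicate 3 and -4.82 without that of replicate 2.

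The other 3 of the 8 had higher levels in the fins, with means of 2.88 to 12.9 CPM in DF and AF. STRG.18434 had 0.184, 0.165 and 0.133 CPM in Pter, against 11.3, 10.1 and 8.5 CPM in DSL (-5.92 ± 0.26, SE, adjusted p = 9.15e-12), and averaged 3.09 CPM in DF and 2.88 in AF. STRG.10827 had 1.42, 0.988 and 1.11 CPM in Pter, against 52.2, 42.3 and 31.0 CPM in DSL (-5.15 ± 0.21, SE, adjusted p = 6.05e-12), and averaged 8.93 CPM in DF and 12.9 in AF. STRG.18149 had lower means in the 3 anterior spines than in both fins. It had 0.551, 0.0412 and 0.0887 CPM in Pter, against 6.71, 8.94 and 3.48 CPM in DSL (-4.84 ± 0.42, SE, adjusted p = 7.7e-08), averaged 1.10 to 1.13 CPM in DS1, DS2 and DS3, and returned to 5.03 CPM in DF and 4.94 in AF. STRG.8764 and STRG.18149 each overlap a gene model on the opposite strand.

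**Figure D4:**
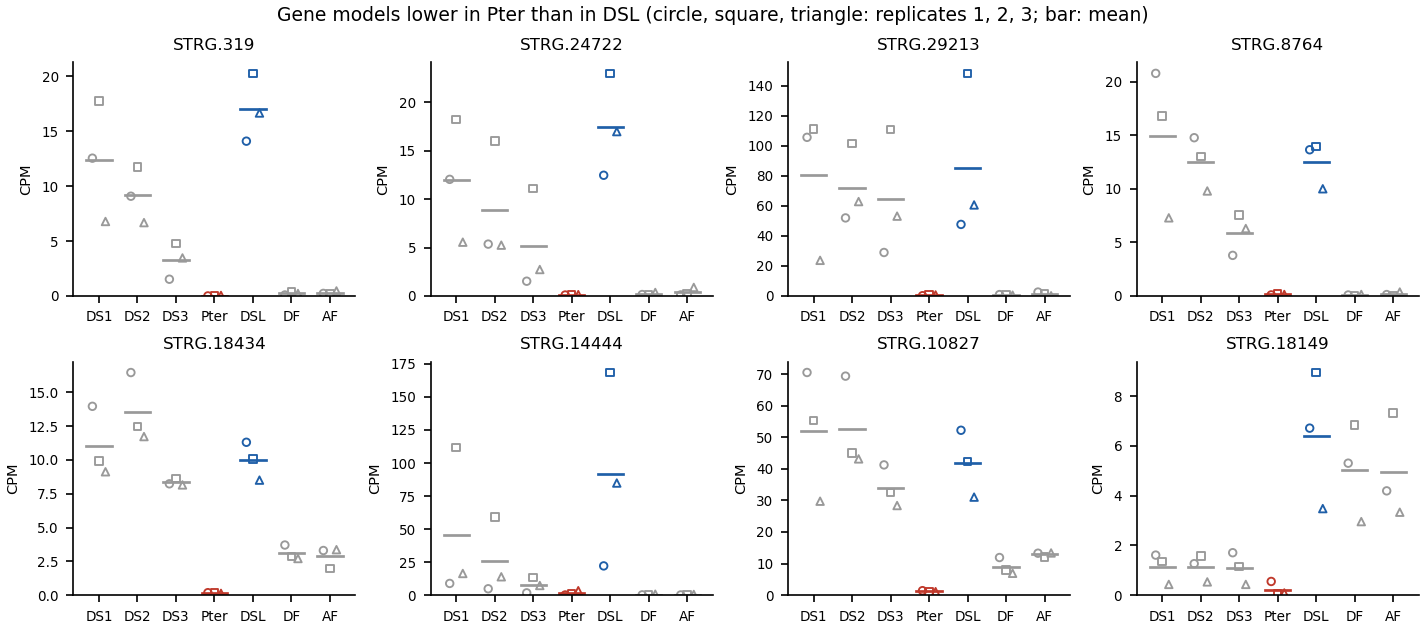
Levels in CPM (y axes, linear from 0, each with its own range) of the 8 gene models with the largest falls in Pter, in DS1, DS2, DS3, Pter, DSL, DF and AF (x axes). Each circle, square or triangle is the library of replicate 1, 2 or 3 and each bar a mean, with Pter in red, DSL in blue and the rest in grey. In 7 of the 8 panels the means of the 4 spines stand above Pter and above both fins, and in that of STRG.18149 the fins stand above DS1, DS2 and DS3.

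Among abundant genes, 4 of the 5 with the largest losses in CPM were lowest in Pter of all 7 tissues, and STRG.7206 was not. STRG.1759 had 189, 136 and 156 CPM in Pter, against 1549.7, 1777 and 1098 CPM in DSL (-3.17 ± 0.23, SE, adjusted p = 1.24e-08), and averaged 295 CPM in DF and 285 in AF. STRG.19975 had 88.5, 33.2 and 72.9 CPM in Pter, against 1114, 1061 and 874 CPM in DSL (-4.02 ± 0.40, SE, adjusted p = 4.85e-07). STRG.13091, a gene model with 385 listed exons, had 417, 217 and 351 CPM in Pter, against 1684, 1843 and 1325 CPM in DSL (-2.29 ± 0.23, SE, adjusted p = 5.38e-07). For these 3 genes the highest Pter library lay below the lowest DSL library by a wide margin, and DS1, DS2 and DS3 averaged 548 to 1097 CPM. STRG.3876 fell less, with 752, 605 and 762 CPM in Pter, against 1734, 1698 and 1163 CPM in DSL (-1.10 ± 0.19, SE, adjusted p = 0.00031). STRG.7206 had the DSL mean above those of all other tissues, with 269, 213 and 249 CPM in Pter, against 502, 800.5 and 1265 CPM in DSL (-1.73 ± 0.30, SE, adjusted p = 0.000252) and means of 230.0 to 366 CPM in DS1, DS2 and DS3. Its Pter mean of 244 CPM lay above those of DS1 (230.0), DF (223) and AF (224).

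Some falling genes were neighbours on a chromosome. There were 5 runs of at least 4 consecutive tested gene models that each fell at least 2-fold and no such run that rose, and adjoining models can be fragments of 1 gene. Falls of at least 2-fold were also more frequent than rises, at 4.11% against 1.43% of tested gene models, which by itself favours falling runs. Whether falling genes lie together beyond that was not tested. The steepest run, on chromosome 15 (8377482 to 8409022), held 5 models, STRG.19974 to STRG.19978, with log2 differences of -2.19 to -4.12, and includes the abundant STRG.19975. STRG.19974 had 0.826, 0.247 and 1.15 CPM in Pter, against 16.4, 15.5 and 7.45 CPM in DSL, and STRG.19977 had 33.4, 24.0 and 20.1 CPM in Pter, against 142, 109 and 99.9 CPM in DSL. The last, STRG.19978, stayed under 1 CPM in both tissues and its call was lost in 8 of 15 alternative settings, among them those without replicate 2 (log2 difference -1.37, adjusted p = 0.411) and without the Pter library of replicate 2 (-1.58, adjusted p = 0.245), while without replicate 3 it was -4.01. A run of 5 models on chromosome 17 (2601028 to 2727721) had differences of -1.22 to -3.65, led by STRG.21797 with 0.413, 0.535 and 0.355 CPM in Pter, against 5.76, 6.47 and 4.12 CPM in DSL. Its weakest member, STRG.21802, lost its call in 15 of 17 settings. STRG.21802 lies inside the span of STRG.21801 on the same strand, which makes the counts of both less certain. The third, of 4 models on chromosome 10 (5042964 to 5062064), had differences of -1.52 to -3.05. Its STRG.13376 averaged 0.0717 CPM in Pter, against 0.349 CPM in DSL, and lost its call in 8 of 15 settings, and STRG.13374 had overlapping libraries and an adjusted p of 0.104 without fish in the model.

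The named gene models that rose in Pter are given in 3 groups, by which libraries carried them, a grouping made after their values were seen and not extended to the rest. The 302 gene models that were higher by at least 2-fold had their highest mean in Pter in 220 cases, and against DSL their median log2 level was 1.17 in Pter, 0.78 in DS3, 0.64 in DS2, 0.44 in DS1 and 0.13 in both DF and AF. The lowest mean was in DSL for 119 of them, in AF for 78 and in DF for 52. Choosing the list by Pter above DSL by itself favours Pter as the highest and DSL as the lowest. The share of all gene models with such places was not counted.

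In the first group all 3 Pter libraries lay above all 3 DSL libraries. This does not set the group apart, since it also held for STRG.3503 and STRG.4266 of the second. It held as well for STRG.30374, STRG.27764, STRG.20284 and STRG.10899 of the third. STRG.26889 had 69.4, 46.5 and 33.4 CPM in Pter, against 2.12, 7.27 and 4.94 CPM in DSL, with a log2 difference of 3.38 ± 0.42 (SE, adjusted p = 7.75e-06). The log2 differences of the 3 fish were 4.97, 2.66 and 2.73, and the call held in all 18 alternative settings. STRG.26889 averaged 23.3 CPM in DS2, 21 in DS3 and 22.1 in DF, but 5.03 in DS1 and 4.01 in AF, so the DSL mean of 4.78 CPM was near those of DS1 and AF. Among the most abundant transcripts, STRG.2544 had 60698, 96347 and 89609 CPM in Pter, against 38680.3, 35038 and 44485 CPM in DSL (1.03 ± 0.20, SE, adjusted p = 0.000643, or 0.0594 without replicate 2). STRG.24405 had 19681, 31019 and 28592 CPM in Pter, against 12409.9, 11634 and 13494 CPM in DSL (1.05 ± 0.20, SE, adjusted p = 0.000605), and STRG.9397 had 15903, 26615 and 25121 CPM in Pter, against 9093, 9429 and 11936 CPM in DSL (1.12 ± 0.20, SE, adjusted p = 0.000285). These 3 rose by similar amounts, had their next highest mean in DS3, at 70796, 22539 and 17488 CPM, and were lowest of the 3 Pter libraries in replicate 1.

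The second group was low in replicate 1 of Pter and shared with DS2. STRG.12858 had 0.0918, 11.7 and 30.1 CPM in Pter, against 0.0353, 0.643 and 0.0292 CPM in DSL (5.58 ± 1.24, SE, adjusted p = 0.00226). STRG.3507 had 0.138, 4.4 and 11.3 CPM in Pter, against 0.0353, 0.257 and 0.0584 CPM in DSL (5.24 ± 1.09, SE, adjusted p = 0.00137), and STRG.10717 had 0.275, 8.48 and 23.0 CPM in Pter, against 0.177, 0.675 and 0.438 CPM in DSL (4.31 ± 0.97, SE, adjusted p = 0.0026). STRG.3503 had 0.551, 4.2 and 12.8 CPM in Pter, against 0.177, 0.161 and 0.175 CPM in DSL (4.84 ± 1.14, SE, adjusted p = 0.00342). In each of the 4 the replicates kept 1 order in Pter, with replicate 3 highest and replicate 1 under 1 CPM, and the SE of about 1 on the log2 scale reflects that spread. DS2 had the highest mean of all tissues for each, from 10.5 CPM for STRG.3503 to 31.3 CPM for STRG.12858, while DF and AF stayed under 1 CPM. For each of the 4, replicate 1 was lowest in DS2 too, with 8.10, 41.9 and 43.9 CPM for STRG.12858. In DS1 only replicate 3 was above 1 CPM. The unevenness was thus not confined to the Pter libraries. STRG.12858 ran between 3.81 without replicate 3 and 8.66 without the DSL library of replicate 2, and STRG.3507 no longer passed without replicate 3 (log2 difference 3.68, adjusted p = 0.0665).

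The only 3 gene models with 0 reads in all DSL libraries and a mean of at least 1 CPM in Pter had this pattern too, and none had 0 reads in Pter and 1 CPM in DSL. STRG.4266 had 0.0459, 3.25 and 9.89 CPM in Pter and 303 reads there in all, 223 of them in replicate 3. With 3 counts over the DSL libraries as the floor it was 138-fold higher in Pter (adjusted p = 0.0007, or 0.0709 without fish in the model). STRG.16350 had 0, 1.03 and 3.86 CPM in Pter, 50.9-fold higher with that floor (adjusted p = 0.00192), a call that was lost in DESeq2 and, at an adjusted p of 0.104, without fish. STRG.21581 had 0, 1.11 and 2.70 CPM in Pter, 40.0-fold higher with that floor (adjusted p = 0.000651). These folds pool the fish and leave out the counting error of the Pter reads, so they are no lower bounds. STRG.16350 and STRG.21581 were thus detected in 2 of 3 Pter libraries, and the DS2 means of the 3 gene models were 6.71, 3.42 and 2.76 CPM.

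The third group was carried by replicate 1 of Pter, the library that stood apart. STRG.30374 had 153869, 12802 and 23091 CPM in Pter, against 5478, 8487 and 6584 CPM in DSL (2.97 ± 0.59, SE, adjusted p = 0.000899), and STRG.27764 had 101232, 10654 and 17478 CPM in Pter, against 4219.9, 6110.0 and 4916 CPM in DSL (2.92 ± 0.55, SE, adjusted p = 0.000588). Without that library their log2 differences were 1.53 (adjusted p = 0.00523) and 1.58 (adjusted p = 0.00263). STRG.20284 had 16.6, 0.864 and 2.31 CPM in Pter, against 0.494, 0.740 and 0.438 CPM in DSL, and its difference of 3.28 ± 0.71 (SE, adjusted p = 0.00184) was 1.67 (adjusted p = 0.0452) without that library and did not pass without replicate 1 in any tissue (1.57, adjusted p = 0.132). STRG.10899 had 20.0, 1.19 and 2.35 CPM in Pter, against 0.883, 0.804 and 0.351 CPM in DSL, with 3.22 ± 0.63 (SE, adjusted p = 0.000837) in all libraries and 1.53 (adjusted p = 0.0144) without that one. Replicate 1 exceeded both other Pter libraries more than 4-fold in 18 of the 302 rising gene models, against 3 for replicate 2 and 6 for replicate 3. The part that the mitochondrial share of this library had in these values was not tested.

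**Figure D5:**
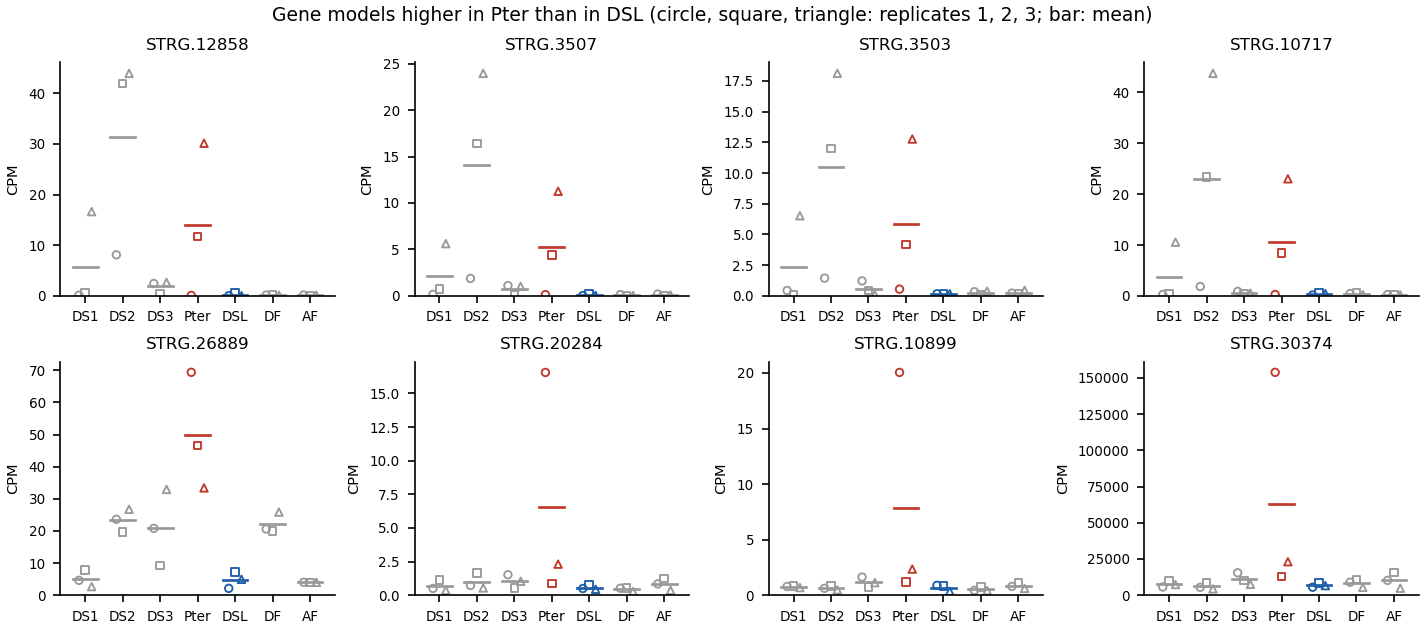
Levels in CPM (y axes, linear from 0, each with its own range) of the 8 gene models with the largest rises in Pter, in DS1, DS2, DS3, Pter, DSL, DF and AF (x axes). Each circle, square or triangle is the library of replicate 1, 2 or 3 and each bar a mean, with Pter in red, DSL in blue and the rest in grey. In the panels of STRG.12858, STRG.3507, STRG.3503 and STRG.10717 the circle of replicate 1 lies far below the other Pter libraries. In those of STRG.20284, STRG.10899 and STRG.30374 it lies far above them. All 3 Pter libraries lie above every DSL library in the panels of STRG.26889, STRG.3503, STRG.20284, STRG.10899 and STRG.30374.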

How the data were processed

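RNA was sequenced from 7 tissues of 3 L/L fry. The values are raw read counts by gene model in 1 table deposited by the authors. The gene models come from their StringTie annotation of their own *Apeltes* assembly, and the *Hox* genes were named by the authors. The submitters' processing notes name Trim Galore, cutadapt 2.4, FastQC 0.11.9, STAR, featureCounts and Subread 2.0.1. How strand was set in counting is not given in the sources used here. A further 85 columns of other samples were not used.

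Gene models were kept by filterByExpr (0.0403% of counts set aside) and scaled by TMM. Pter and DSL were compared by the two-sided quasi-likelihood F test of edgeR 4.0.16 (R 4.3.3), with tissue and fish as terms and all 21 libraries in the fit, and Benjamini-Hochberg adjustment over all 21134 tested gene models at 0.05. SE values are approximate, from the ratio of each difference to its root F. The replicate number in the titles marks 1 fish. After removal of tissue means, Pter and DSL libraries of the same fish correlated at 0.53, 0.625 and 0.666, and those of different fish at -0.451 to -0.131. Removing the mean of 3 libraries by itself pushes the values of different fish below 0 where those of the same fish are above 0. No libraries were duplicates (chi-square at least 27 per degree of freedom within a tissue). The fish term takes out the overall difference between fish in each gene. The p-values rest on the spread that remains, which is how far tissue differences vary from fish to fish, pooled over the 7 tissues. They rest on 3 fish of 1 population and 1 genotype and cover no other population or genotype. Whether the fry were siblings is not stated.

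Named genes were all *Hox* genes, the 8 rising and 8 falling others with the largest log2 difference (3 of 3 fish, at least 5 CPM in the higher tissue), the 5 each way with the largest difference in CPM at 2-fold or more, up to 3 each way with 0 reads in 1 tissue, and the members of up to 3 runs of neighbours. Members and lists were chosen with earlier results of these data known. Alternatives were RLE factors, library totals alone, DESeq2 1.42.0, limma-voom (limma 3.58.1), no filter, a filter of 1 CPM in 6 libraries, no fish term, the 6 libraries alone and leaving out each fish or library. The procedure was tested on simulated data.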

Additional observations from a re-analysis of the deposited data

How the results depend on the processing

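Under the other tools, scalings and filters, except library totals alone, the count of gene models that differed stayed within 1.5 times of 5648, at 5632 with RLE factors, 5857 with DESeq2, 5527 with limma-voom, 5274 with no filter and 5581 with the stricter filter. With library totals alone it was 11938 (414 higher, 11524 lower), with 80 higher and 2577 lower by at least 2-fold and 23 *Hox* genes (2 higher, 21 lower). Under that scaling 3.47% of the calls were higher in Pter, against 46.1% with TMM, and *HOXA7A* and *HOXC4A* were reversed at -0.0091 and -0.028.

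Without the replicate block the count was 2059 (775 higher, 1284 lower), with 154 higher by at least 2-fold and 9 *Hox* genes (3 higher, 6 lower). In the 6 libraries alone with no replicate block it was 933 (310 higher, 623 lower), with 105 higher and 452 lower by at least 2-fold and 5 *Hox* genes (1 higher, 4 lower), while with the block those 6 libraries gave 4547 and 14 *Hox* genes. Leaving out 1 fish or library gave 2220 to 4907 gene models, 832 to 2562 higher and 1388 to 2545 lower, with 168 to 379 higher and 574 to 851 lower by at least 2-fold, and 11 to 16 *Hox* genes, 3 to 5 higher and 8 to 11 lower. The causes of these shifts were not tested. *HOXD4B*, which did not pass in the main fit, was above 0 with RLE factors (0.017), with DESeq2 (0.019) and in the 6 libraries without the block (0.0024). With 1 fish or library left out it ranged from -0.16 to 0.21. There it was above 0 without replicate 2 (0.16), the Pter library of replicate 2 (0.21) or the DSL library of replicate 1 (0.052). Over all 18 alternatives its lowest log2 difference was -0.49, and in 1 of them it passed as lower in Pter. *HOXA11A*, *HOXC11A*, *HOXD11A*, *HOXD9B* and *HOXB5A* kept their direction and their call in all 18 alternatives. The 9 untested *Hox* genes, *HOXA13B*, *HOXC12A* (1 read in Pter, 11 in DSL) and *HOXD12A* (10 and 9) had too few reads for a firm statement at this depth.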
